A study of Mus musculus with 27 samples.

Results

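The regions described here are 3679 binding sites of the transcription factor Nkx2.2 in MIN6 cells, a mouse pancreatic beta-cell line. They were taken from the 6473 final sites that the authors kept from 10749 binding events. Sites were selected on the deposited ChIP signal and on the joining: a site was kept if its coordinate did not appear among the sites that the authors' deposited table of bound genes joins to a gene, and if its mean ChIP signal over both replicates lay under the 90th percentile of the final sites. That threshold was a mean of 8.06 on the log2 scale of counts scaled to library size (log2 CPM). The comparison sites were the 2146 joined sites under the same threshold, the 648 sites at or above it (412 joined and 236 not joined), called the strongest sites below, and the 4276 events left out of the final sites. Because the signal and the joining chose the regions, their differences in both are a description and were not tested.

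The study examined a mutation of the SD domain of Nkx2.2, a short conserved stretch of the protein, in the pancreas and in neural progenitors. Nkx2.2 binding was measured by ChIP-seq in 2 replicates of MIN6 cells. RNA was sequenced from 8-week islets in 2 control libraries and 3 with the SD mutation in beta cells (betaSDmut), and from 4-week islets in 2 control libraries and 2 labelled betaKO. The labels give no Cre driver, no allele and no genotype of the controls, and they call the material of the 4-week samples genomic DNA, while the table gives gene counts for them. Progenitors on day 4 of motor neuron differentiation came from mouse embryonic stem cells. Of these, 3 iNkx2.2 libraries carried a FLAG-tagged wildtype Nkx2.2 transgene induced with doxycycline at 1 µg/ml for about 16 h. The 3 pMN libraries were untreated cells of the same line, and 2 libraries of a line with the mutant transgene (iSDmut) entered the fit only to estimate the spread. Each transgene was carried by a single line.

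Nkx2.2 is a homeodomain protein of the NK2 family, which binds DNA with an AAGTG core and needs partner proteins to repress or activate genes. In the pancreas it is required for beta-cell formation and for keeping beta-cell identity, and in the ventral neural tube it sets progenitor identity by repression. Groucho-type corepressors (Tle proteins) and DNA methyltransferases are among its known partners. RFX proteins, which bind the letters GTTGC, and basic helix-loop-helix proteins such as NeuroD1, which bind E-boxes, are other regulators of islet genes.

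The sequences under 10 of the regions show the letters on which the sequence results turn. Each is the window of 101 bp centred on the site, 5′ to 3′ on the + strand of GRCm38 (mm10, RefSeq genome). Capitals mark the NKX core AAGTG and the related NKX form TGAGTG. They also mark the RFX letters GTTGC and the E-box, which is CAGATG. Each was marked on either strand, so that GTTGC on the other strand appears in the line as GCAAC. The first 5 windows were chosen for GTTGC close to the centre, the other 5 for the NKX or E-box letters or for lying at the start of an islet gene.
Rfx3, chr19:27988847-27988947: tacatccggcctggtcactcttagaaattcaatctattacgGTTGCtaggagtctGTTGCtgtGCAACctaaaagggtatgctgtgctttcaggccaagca
Frmpd4, chrX:168560586-168560686: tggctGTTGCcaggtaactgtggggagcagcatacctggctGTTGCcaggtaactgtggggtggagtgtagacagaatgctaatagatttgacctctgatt
Ptch1, chr13:63566355-63566455: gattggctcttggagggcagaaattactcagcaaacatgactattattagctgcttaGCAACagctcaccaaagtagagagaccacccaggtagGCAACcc
Chga, chr12:102551267-102551367: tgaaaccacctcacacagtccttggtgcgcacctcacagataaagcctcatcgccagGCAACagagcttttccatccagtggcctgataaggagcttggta
Scg2, chr1:79454742-79454842: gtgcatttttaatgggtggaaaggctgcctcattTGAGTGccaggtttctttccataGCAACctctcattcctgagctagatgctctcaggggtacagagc
Ins2, chr7:142680412-142680512: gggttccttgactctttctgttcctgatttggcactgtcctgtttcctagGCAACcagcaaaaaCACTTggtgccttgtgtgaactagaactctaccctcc
Iapp, chr6:142298206-142298306: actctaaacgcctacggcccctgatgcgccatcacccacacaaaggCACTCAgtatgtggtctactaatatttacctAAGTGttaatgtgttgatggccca
Abcc8, chr7:46187611-46187711: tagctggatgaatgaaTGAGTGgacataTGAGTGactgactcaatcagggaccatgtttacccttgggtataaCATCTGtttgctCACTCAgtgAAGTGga
Kif1b, chr4:149327434-149327534: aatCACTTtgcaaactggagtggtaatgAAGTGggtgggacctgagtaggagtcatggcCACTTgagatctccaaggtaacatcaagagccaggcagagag
G6pc2, chr2:69219844-69219944: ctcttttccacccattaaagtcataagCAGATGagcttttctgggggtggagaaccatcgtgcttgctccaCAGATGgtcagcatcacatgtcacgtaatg

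The Rfx3 window, in the intron of a gene for an RFX protein, held GTTGC 3 times, centred 7 bp before the site and 7 and 15 bp after it. The Frmpd4 window, at one of the 5 regions with the highest signal, held GTTGC 2 times. In the Ptch1, Chga and Scg2 windows the letters appeared as GCAAC, centred 9 bp after the site in each. The Ins2 window held GCAAC 2 bp after the site and the NKX core, read on the other strand, 16 bp after it. The Iapp window, in contrast, had no GTTGC and held the TGAGTG form, read on the other strand, 1 bp before the site and the NKX core 29 bp after it. In the Abcc8 window TGAGTG occurred 3 times, and in the Kif1b window AAGTG occurred 3 times. The G6pc2 window had only the E-box CAGATG, 2 times.

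The regions were weaker than the joined sites, as the choice of regions favours. Their median signal was 6.63 log2 CPM (quartiles 6.35 and 7.03), against 6.93 for the joined sites and 8.60 for the strongest sites. In reads, the regions held 49 to 237 counts in 500 bp in replicate 1 (median 78) and 37 to 176 in replicate 2 (median 60). The ranges of all 3 sets of final sites were cut by the same threshold, so that the regions and the joined sites overlapped over nearly their whole range. Just inside the threshold lay sites nearest to Rimbp2 (8.114 and 8.004 log2 CPM in replicates 1 and 2), Wdr11 (7.996 and 8.122) and Erich3 (8.088 and 8.032). Just outside it lay sites nearest to Nfam1, Wasf2 and Dcp1b, with means of 8.064, 8.067 and 8.071. The lowest regions, nearest to Camk2d and Triml1, were both at 5.971, with 49 and 37 counts.

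The replicates differed by a median of 0.162 log2 CPM at the regions (95% of them by at most 0.472, and the largest by 1.03). The corresponding medians were 0.149 at joined sites and 0.0895 at the strongest sites. Across the 3679 regions the replicates had a Pearson correlation of 0.881, given as a description because the sites share libraries and were cut from above by signal. Replicate 1 was higher at 1764 of them. The deposited values of the final sites had the same minimum and maximum in both replicates, and their sorted values differed by at most 0.0338. Differences between replicates therefore concern the order of the sites and not their overall level. No value of the input library was analysed here, so no enrichment over input is given.

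**Figure D1:**
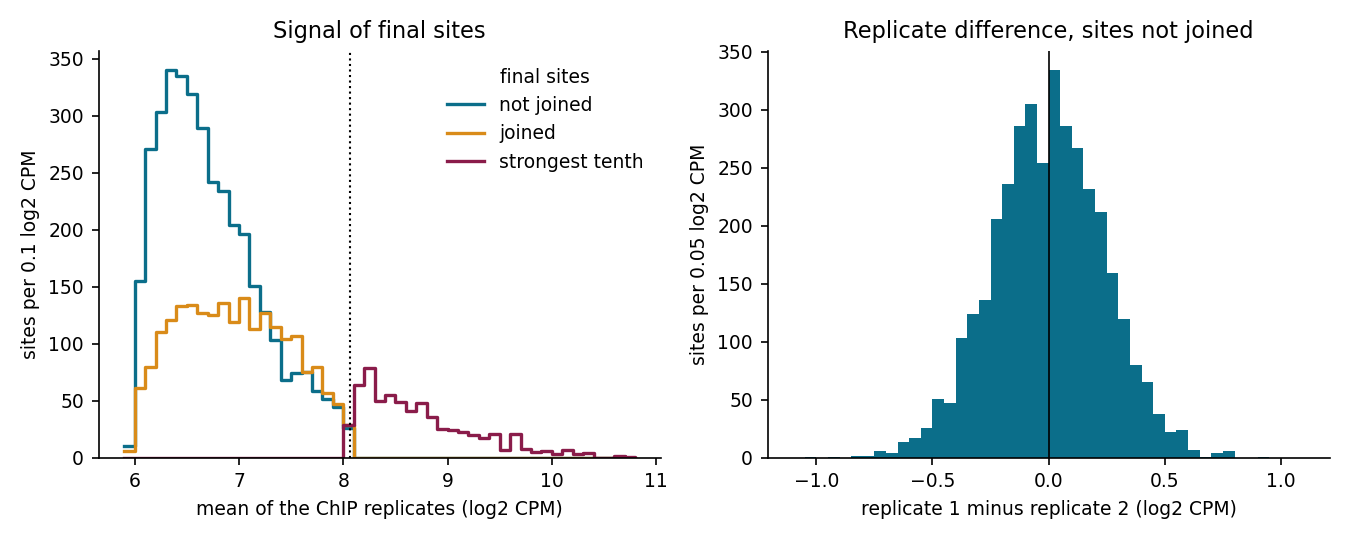
Left, number of sites by mean log2 CPM over both ChIP replicates for the regions not joined to genes, the joined sites and the strongest sites, with the threshold of 8.06 dotted. Right, the difference of replicate 1 minus replicate 2 at the regions only. The regions peak to the left of the joined sites (medians 6.63 and 6.93), and their replicate differences centre near 0.

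Most of the regions had a simple relation to the authors' table of genes. The nearest protein-coding gene was joined to another final site for 1700 regions (46.2%), was not among the 9971 genes of that table for 1860 (50.6%), and was in the table without any joined site for 119 (3.24%). Where another site was joined to the nearest gene, that site was the stronger in 1669 of 1700 cases (98.2%), by a median of 0.884 log2 CPM. It lay a median of 68974.5 bp away. Its distance to the nearest protein-coding start site, of whichever gene, was shorter than that of the region in 890 cases (52.4%). That start belonged to the joined gene at 93.1% of all joined sites. The joined site was thus nearly always the stronger of the pair, and about as often farther from its nearest start as nearer. The regions were cut at the signal threshold and the joined sites of these pairs were not. That cut favours the joined site, so the share and the gap in signal are a description. In 31 cases the unjoined region was the stronger. At Hk1 the region had 7.368 and the joined site 6.742 log2 CPM, and at Dnmt3a they had 8.022 and 7.432.

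The genes outside the table were mostly at low levels in islets. The table was built from the same islet libraries, so this level is not independent of the split by table. Over genes with a region within 100 kb, those outside the table had a median of 0.34 FPKM (the authors' deposited values, scaled for gene length and depth) in 8-week control islets, and 70.3% of them were under 1 FPKM. Genes joined to another site had a median of 17.4 FPKM, and 1.1% of them were under 1 FPKM. Of genes in the table without a joined site, 4.55% were under 1 FPKM. Protein-coding genes with no final site, which were not split by the table, had a median of 1.84 FPKM. Bach2, Rest, Smad3, Slc16a1, Pax3, Pax7, En1 and Lhx4 were among the nearest genes outside the table. Rest, Smad3 and Slc16a1 belong to the genes that mature beta cells keep low.

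The regions lay far from gene starts. Their median distance to the nearest protein-coding start site was 51993 bp, against 20209.5 bp for joined sites, 28539.5 bp for the strongest sites and 50120.5 bp for the events left out. Within 1000 bp of a start site lay 158 regions (4.30%, 95% exact binomial interval 3.66 to 5.0, which treats sites as independent). The same share was 14.0% of joined sites, 10.2% of the strongest sites and 3.98% of the events left out. Of the events left out, 1322 (30.9%) lay within 1000 bp of a final site. Without them the median distance was 54662 bp, and 2.81% lay within 1000 bp of a start. In distance the regions thus resembled the events that the authors dropped more than the sites that they joined. Joining may itself depend on distance, so this difference is not independent of the choice. Farther than 1000 bp from a start, 1761 regions lay in introns, 1699 outside protein-coding genes, 30 in coding exons and 31 in untranslated exons.

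**Figure D2:**
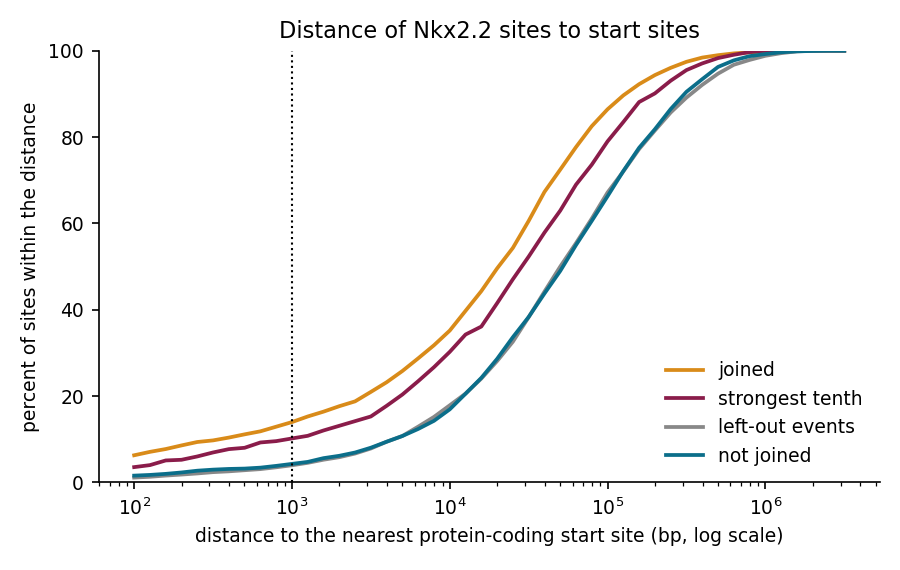
Percentage of sites within a given distance (bp, log axis) of a protein-coding start site, for the regions, the joined sites, the strongest sites and the events left out of the final sites. The dotted line marks 1000 bp, where the curves stand at 4.30%, 14.0%, 10.2% and 3.98%.

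Some genes gathered many regions. The 3679 regions had 2197 nearest genes, of which 1398 (63.6%) had 1 region and 39 had 6 or more. Among the genes with most regions, chosen after their counts were seen, were Robo2 with 13, Chd6 and Myt1l with 10 each and Zbtb20 with 9. Robo2 encodes an axon guidance receptor and Myt1l a zinc finger protein of neurons. Alcam, Auts2, Cadm1, Kif16b, Magi1, Noct and Tox3 had 8 regions each. All but Auts2 of these were joined to another site in the authors' table. Chromosome Y had no final site. Over the other chromosomes, the density ran from 0.357 regions per Mb on chromosome X to 2.08 on chromosome 16, and that of all final sites was 0.754 and 3.22 per Mb on the same chromosomes.

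Genes of islet function were often nearest to a region. A region within 100 kb was nearest to 12 of 23 genes of hormones and granule proteins (52.2%), 13 of 26 genes of glucose sensing and exocytosis (50%) and 11 of 32 islet transcription factors (34.4%). The share over all protein-coding genes was 8.11% (1777 of 21924). The share was 12 of 40 neural progenitor and motor neuron genes (30%), a list that shares Pax6, Isl1, Foxa2 and others with the islet factors. Among genes of other cells it was 2 of 18 duct, stroma, vessel and blood genes and 0 of 21 acinar genes. It was 4 of 12 genes that beta cells keep silent and 5 of 16 genes of corepressors and DNA methylation. These shares are counts without a test, and gene length and the space between genes, which differ between lists, were not matched.

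A few regions lay directly at the starts of genes that define the beta cell. The G6pc2 region, 77 bp from the start of the gene of an islet glucose-6-phosphatase, had 6.176 and 6.502 log2 CPM, with 56 and 54 counts. The Iapp region, 167 bp from the start of the gene of islet amyloid polypeptide, had 6.947 and 7.005, while the joined Iapp site 8714 bp away had a mean of 8.341. The Ins2 region, 736 bp from the start of an insulin gene, had 7.038 and 6.971, and Ins2 was listed in the table with no joined site. Each of these values lay within the spread of the regions as a whole.

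Regions also lay at the starts of regulators and channels. The Myt1 region, 91 bp from the start of the gene of a zinc finger protein of endocrine progenitors (chromosome 2, 181767133), had 6.947 and 6.706 log2 CPM, and the joined Myt1 site 7873 bp away had 8.291. The Cacna1c region, 228 bp from the start of the gene of a calcium channel of insulin secretion (chromosome 6, 119079779), had 7.239 and 7.327. The Ptch1 region, 670 bp from the start of the gene of the Hedgehog receptor, had 6.849 and 6.841, and its joined site had 7.598. For Iapp, Myt1 and Ptch1 the stronger joined site was the one farther from the start.

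Letters were counted within 50 bp of each site on both strands, and the flanks were windows of the same length 1000 bp to either side. The clearest excess was in RFX letters. GTTGC was found at 1346 regions (36.6%), against 11.4% of flanks and 14.7% of 27025 RefSeq promoters in windows of the same length. The longer GTTGCNA, which contains it, was found at 21.7% of regions, 2.64% of flanks and 4.01% of promoters. The joined sites had a like share of GTTGC (38.9%), the strongest sites a higher one (61.0%), and events left out more than 1000 bp from a final site 36.2%. Within the regions the share was 35.3%, 32.8%, 34% and 44.2% in 4 equal bins from the lowest to the highest signal, so that only the top bin stood above the others. A match is a description of the letters and not evidence of a bound protein.

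The NKX letters were less marked. The core AAGTG was found at 23.8% of regions (95% exact binomial interval 22.4 to 25.2) and at 21.1% of flanks. It was at 22.3% of joined sites and 18.4% of the strongest sites. The longer TNAAGTG, which contains it, was at 8.32% of regions and 5.61% of flanks. The related form TGAGTG, examined after the words in these windows were seen, was at 18.3% of regions, 6.5% of flanks, 21.1% of joined sites and 5.74% of promoters. By this count TGAGTG, and not AAGTG, was the NKX-type word that stood out at the regions. One of these 2 NKX words was present at 1396 regions (37.9%).

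Other letters of islet regulators were also in excess. The E-box CAGATG was at 18.6% of regions and 7.99% of flanks, and CAGCTG at 10.5% and 4.44%. The forkhead letters TGTTTAC were at 4.27% and 1.47%, and the homeodomain letters TAATGG at 8.75% and 3.78%. The CCAAT box (12.4% and 14.0%) and the CTCF letters AGGGGGC (0.979% and 1.01%) were not higher than in flanks. At 1116 regions (30.3%) no NKX, RFX, E-box or forkhead word was found. The regions had a median GC content of 46.5%, against 43.6% in the flanks. Mostly repeat sequence made up 4.02% of the regions and 18.1% of the flanks, and the part of composition in the excesses was not tested.

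A count of all words of 6 letters in the same windows gave the same order. The motif words other than AAGTG and TNAAGTG were chosen after these windows were examined, so this count is not independent of that choice. The word with the largest difference in share was GGCAAC, which holds the RFX letters read on the other strand, at 16.9% of regions and 2.92% of flanks. AGCAAC (19.2% and 5.50%) came next. The word at rank 3 overlapped GGCAAC, and the word at rank 4 overlapped both. The NKX form TGAGTG ranked 5 and the E-box CAGATG ranked 6. Of 1323 words found at 100 or more regions, 42 were at least 2 times as frequent as in flanks.

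RFX letters sat at fixed positions. GTTGC on the + strand was centred 7 bp before the site in 511 of 830 matches within 50 bp (61.6%), and on the - strand 9 bp after it in 528 of 824 (64.1%). GTTGCNA was centred 6 bp before the site in 352 of 423 + strand matches (83.2%). Of the 10 other words with 50 or more matches on each strand, none had a position with more than 6.19% of its matches, the value of TGANTCA. For TGAGTG the highest share was 4.60%. The CTCF letters had only 13 and 26 matches and were not compared. At 1038 regions (28.2%) GTTGC lay at its commonest position, as it does in the Rfx3, Frmpd4, Ptch1, Chga and Scg2 windows above. The same held for 30.1% of joined sites and 49.7% of the strongest sites. The event caller GEM, by its published method, can use enriched short words to place events. Whether it did so here is not given in the sources used here, so the position of the letters cannot be taken as independent of the calling.

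The regions with GTTGC at that position had fewer of the other letters. TGAGTG was at 8.86% of the 1038 and at 22.0% of the other 2641, and CAGATG at 13.3% and 20.6%. AAGTG differed less, at 21.3% and 24.7%. Regions with the RFX letters were also nearer to starts (median 39834 bp, against 56706 bp) and slightly stronger (median 6.71 and 6.61 log2 CPM). At the 158 regions within 1000 bp of a start, GTTGC was found at 48.1% and CAGATG at 5.70%. At regions farther away the shares were 36.1% and 19.1%. Start-site regions thus carried more of the RFX letters and fewer E-boxes. Over all promoters GTTGC was at 14.7% and CAGATG at 5.84%, so the E-box share at start-site regions was near that of promoters at large. The median GC content was 54.5% at start-site regions and 46.5% at those farther away, and its part was not tested.

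**Figure D3:**
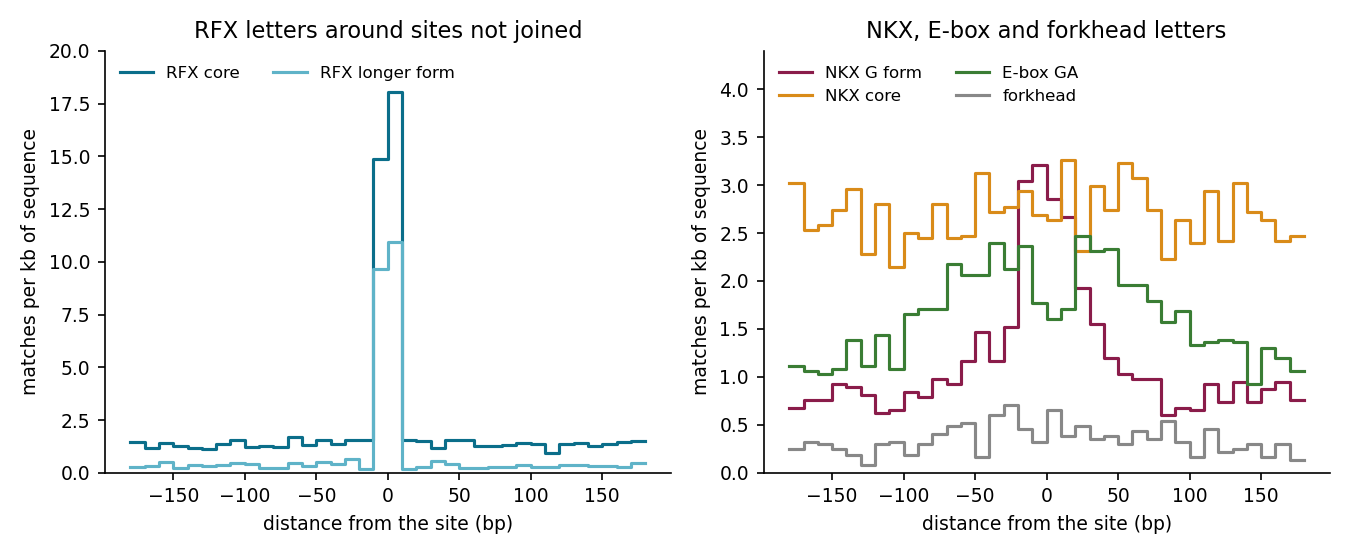
Matches per kb of window around the regions, in bins of 10 bp, within 180 bp of the site. Left, the RFX letters GTTGC (RFX core) and GTTGCNA (the longer RFX form). Right, TGAGTG (NKX G form), AAGTG (NKX core), CAGATG (E-box GA) and TGTTTAC (forkhead). Within 25 bp of the site the density was 11.7 times that in the 25 bp beyond 150 bp for GTTGCNA, 5.27 times for GTTGC, 3.27 times for TGAGTG and 1.08 times for AAGTG.

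RNA of the nearest genes was then compared in islets and progenitors. A gene was counted if it was the nearest protein-coding gene to a region within 100 kb, which held for 1777 genes of 2439 regions. Library totals were 12398041 to 32385406 counts for islets and 17757991 to 46840701 for progenitors. Levels are given as CPM, counts per 1000000 counts after TMM scaling, and calls are edgeR quasi-likelihood tests with Benjamini-Hochberg adjustment over all genes tested at 0.05. Nothing in the labels says that the replicates are separate animals or cultures, so p-values measure only the spread between these samples. In islets, fewer cells of a type and less RNA per cell cannot be told apart. Nkx2-2 itself was at 103, 83.6 and 80.9 CPM in betaSDmut islets and 101 and 87.5 in their controls, and at 93.9 and 65.1 in the libraries labelled betaKO and 104 and 77.3 in theirs. Both groups overlapped their controls, and the labels do not say which part was deleted in betaKO. In iNkx2.2 progenitors it was at 386, 351 and 345 CPM and in pMN at 11.4, 5.21 and 10.7. The 8 beta-cell markers summed to 199000 to 216000 CPM in betaSDmut islets and 233000 to 238000 in controls, and to 168000 to 181000 against 213000 to 218000 at 4 weeks. The 5 alpha-cell markers were at 23100 to 32600 against 31700 to 40400 at 8 weeks and at 52800 to 64900 against 26300 to 30800 at 4 weeks, and 5 acinar markers were at 308 to 3530 against 2630 to 4380 and at 4720 to 14500 against 2140 to 3870. The part of these shifts in the islet results was not tested.

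In 8-week islets, nearest genes of the regions were called in both directions. Of 1355 tested, 223 were called (16.5%), 117 higher and 106 lower in betaSDmut. Over all 15413 genes tested, 7.94% were called (4.07% higher and 3.87% lower). Genes that within 100 kb were nearest only to other final sites, joined or strongest, were called in 207 of 1576 cases (13.1%). Genes joined to another site were called in 158 of 726 cases (21.8%), genes outside the authors' table in 52 of 562 (9.25%). The table was built from the same islet libraries, so this split by table is a description. The share called was higher for genes nearest to more final sites within 100 kb, at 6.67% with none and 12.4%, 20.2% and 21.9% with 1, 2 and 3 or more. The level was higher too (median log2 CPM 4.04, 4.82, 5.21 and 5.55). Among genes with a mean log2 CPM of 5 or more the shares were 8.10%, 14.0%, 20.8% and 23.2%, and among those between 2 and 5 they were 6.73%, 12%, 18.8% and 21.2%. Under a mean log2 CPM of 2 they were 4.60%, 8.54%, 20.6% and 16.0%, the last over 25 genes, so that the order did not hold there. The count of 223 was 366 without betaSDmut replicate 1, 71 without betaSDmut replicate 2 and 11 without either control. Replicate 1 was also the betaSDmut library with Xist at 730 CPM, which was at most 3.46 CPM in the other 8-week libraries.

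**Figure D4:**
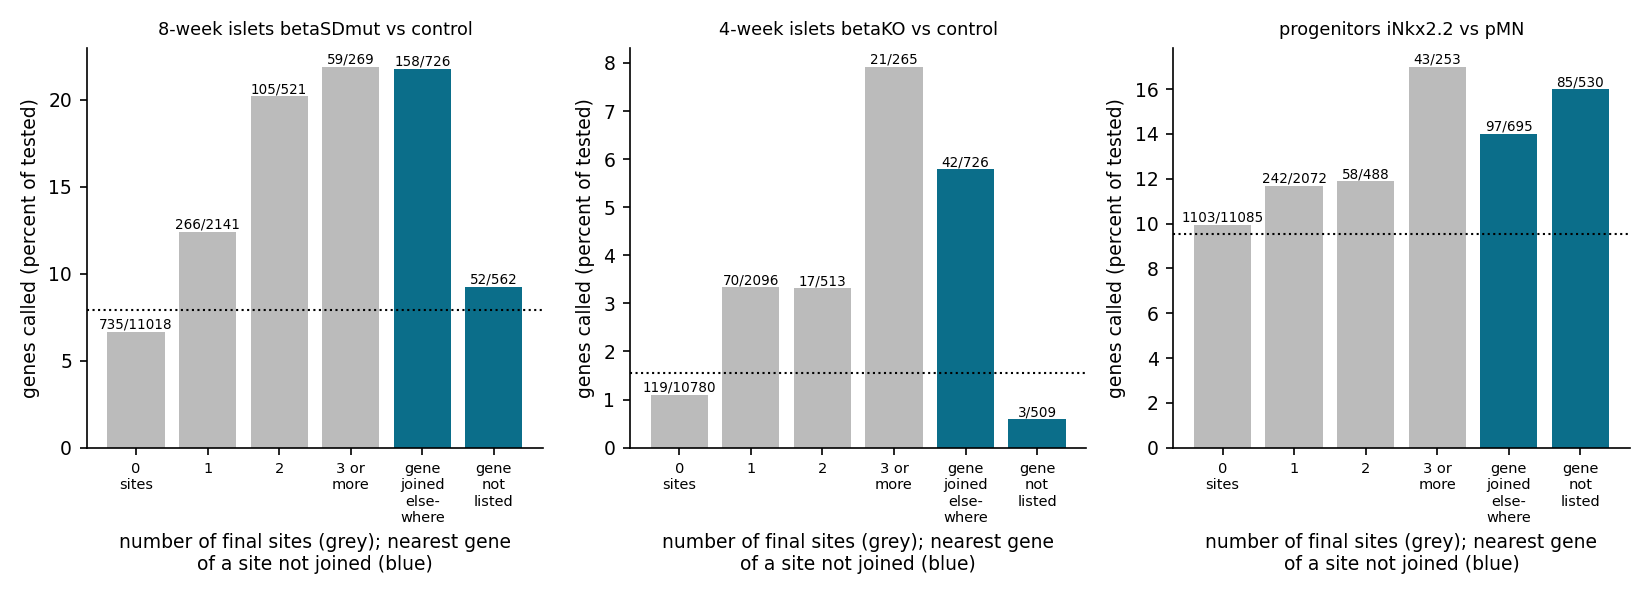
Percentage of tested genes called in each comparison, by number of final sites within 100 kb to which the gene is nearest (grey bars) and for nearest genes of the regions that are joined to another site or not in the authors' table (blue), with called over tested genes above each bar. The dotted line is the percentage called over all genes (7.94%, 1.56% and 9.55%). The blue bars stand at 21.8% and 9.25% in 8-week islets, 5.79% and 0.589% in 4-week islets and 14.0% and 16.0% in progenitors.

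Some nearest genes with low levels in control islets were higher in the mutants. Pde6c, a phosphodiesterase of cone photoreceptors with a region 753 bp from its start, was at 17.8, 18.7 and 19 CPM in betaSDmut islets and at 0.329 and 0.556 in controls. Every mutant library was thus far above both controls (log2 fold change 5.34, SE 0.198, edgeR adjusted p 0.000484). That region was uneven between ChIP replicates, at 6.25 and 7.01 log2 CPM. Svopl, a transporter-like protein gene, was at 9.66, 9.65 and 10.9 CPM against 0.987 and 1.11 (log2 fold change 3.24, SE 0.17, edgeR adjusted p 0.00114). Bdnf, a neurotrophin gene with a region 1944 bp from its start, was at 9.0, 12.5 and 11.3 CPM against 1.74 and 1.8 (2.61 on the log2 scale). Among genes with more RNA in controls, Retreg1, the gene of an endoplasmic reticulum receptor for autophagy, rose from 15 and 16.2 CPM by a log2 fold change of 2.31. Syne1, a gene of the nuclear envelope, rose from 100 and 106 CPM by 1.69.

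Fras1 and Cntnap2 moved the other way. Fras1, an extracellular matrix gene, was at 9.99, 9.45 and 11.5 CPM in betaSDmut islets and at 49.1 and 53.4 in controls (log2 fold change -2.32, SE 0.108, edgeR adjusted p 0.000868). Cntnap2, a cell adhesion gene of neurons, was at 16.3, 18.4 and 13.9 CPM against 77.2 and 83.7. The groups did not overlap at either gene.

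Of the 12 hormone and granule genes with a region, 2 were higher, 2 were lower and 8 did not pass the test, and over the whole list 4 of 23 were higher and 2 lower. Chga, which encodes the granule protein chromogranin A, was at 6550, 6020 and 6040 CPM in betaSDmut islets and at 12500 and 14400 in controls. It fell in every mutant library (log2 fold change -1.13, SE 0.114, edgeR adjusted p 0.00626). Slc30a8, the zinc transporter of insulin granules, fell from 1110 and 1220 CPM to 626, 480 and 514 (log2 fold change -1.12). Scg2, which encodes secretogranin II, rose from 6190 and 6240 CPM to 12300, 17200 and 16300, and Scg3 rose by a log2 fold change of 0.50. Granule genes with a region thus changed in opposite directions.

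Of 13 genes of glucose sensing and exocytosis with a region, 1 rose and 2 fell, and over the whole list 1 of 26 rose and 4 fell. Slc2a2, the glucose transporter of beta cells, was at 549, 530 and 424 CPM against 918 and 925 in controls. Glp1r, the receptor of the incretin GLP-1, was at 169, 136 and 126 CPM against 295 and 361 (log2 fold change -1.20, SE 0.155, edgeR adjusted p 0.0115). Snap25, a protein of vesicle fusion, rose by a log2 fold change of 0.37. Of 11 islet transcription factors with a region, 2 rose and 3 fell, and over the whole list 3 of 29 tested rose and 3 fell. Isl1, a LIM homeodomain factor of endocrine cells, was higher by a log2 fold change of 0.98. Nkx6-1 was lower by a log2 fold change of -0.91, St18 by -0.68 and Insm1 by -0.50. The 4 genes that beta cells keep silent and that have a region did not pass the test, while 2 of the 12 on the whole list rose.

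Of 5 corepressor and DNA methylation genes with a region, 1 rose and 1 fell, and both are Groucho-type corepressors. Over the whole list 2 of 16 rose and 1 fell. Tle3, with 3 regions within 100 kb, was at 43.6, 36.0 and 32.5 CPM in betaSDmut islets and at 107 and 101 in controls (log2 fold change -1.49, SE 0.128, edgeR adjusted p 0.00456). Tle4, with 1 region 85475 bp from its start, was at 39.3, 43.0 and 37.6 CPM against 11.6 and 12.6 (1.71, SE 0.0972, edgeR adjusted p 0.00129). The mutants thus lay below both controls at Tle3 and above both at Tle4. Of 29 named genes called in 8-week islets, 6 were called in each of 9 other fits that changed the tool, scaling, filter, block or left out 1 library: Pde6c, Svopl, Fras1, Cntnap2, Retreg1 and Tle4. The calls of the other 23 were all lost without control 1, and 22 of them without control 2.

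In 4-week islets few genes were called. Of 1302 nearest genes tested, 46 were called (3.53%), 26 higher and 20 lower in the libraries labelled betaKO, against 1.56% of all 14942 genes tested (0.81% higher and 0.75% lower). Genes joined to another site made up 42 of these (of 726, 5.79%), and 3 of 509 genes outside the table were called (0.589%). Genes nearest only to other final sites were called in 62 of 1572 cases (3.94%), a share not below that of the regions' genes. The share was 1.1% with no final site, 3.3% with 1, 3.3% with 2 and 7.92% with 3 or more. The count was 9 without betaKO replicate 2, 2 without control 1 and 2 without control 2, and DESeq2 called 137. Control 1 had Xist at 1000 CPM, and the other 4-week libraries at most 0.778.

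Npy had the largest change among the named genes at 4 weeks. This neuropeptide gene, with a region 3843 bp from its start, was at 107 and 106 CPM in the libraries labelled betaKO and at 6.88 and 9.93 in controls (log2 fold change 3.69, SE 0.192, edgeR adjusted p 0.0147). It was called in each of 8 other fits, while the calls of the other 17 named 4-week genes were lost without control 1 and without control 2. In 8-week islets it was at 10.6, 18.1 and 8.16 CPM against 20.1 and 26.5, with no call (log2 fold change -0.94, SE 0.342, edgeR adjusted p 0.163).

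Both islet comparisons called 28 of the 1289 nearest genes tested in both (2.2%), against 0.806% of all 14762 genes tested in both. Of the 28, 14 were higher in both, 13 lower in both and 1, Th, opposite. Over all genes these were 58 (0.393%), 55 (0.373%) and 6 (0.0406%), so that calls in both also mostly shared their direction among genes at large. The 2 comparisons used separate libraries of different ages. Tle4 was at 22.6 and 30.1 CPM in the libraries labelled betaKO and at 8.91 and 9.81 in controls, and Tle3 was at 53.3 and 52.9 against 92.9 and 95.7. Both thus moved as in 8-week betaSDmut islets. Pde6c (4.43 and 6.22 CPM against 0.845 and 0.606), Retreg1 (39.0 and 39.5 against 10.8 and 9.63) and Glp1r (97.9 and 95.5 against 193 and 182) also kept their direction. Plekha1, Slc39a11, Ovol2, Tmtc1, Syne1 and Bdnf were higher in both, and Car10 and Phactr1 lower in both.

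Th, which encodes tyrosine hydroxylase and has a region 2400 bp from its start, went opposite ways. It was at 184, 152 and 122 CPM in 8-week betaSDmut islets and at 41.2 and 26.9 in their controls (log2 fold change 2.15, SE 0.259, edgeR adjusted p 0.012). At 4 weeks it was at 12.3 and 17.5 CPM in the libraries labelled betaKO and at 51.5 and 59.8 in controls (log2 fold change -1.90, SE 0.196, edgeR adjusted p 0.0321). No groups overlapped in either comparison.

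**Figure D5:**
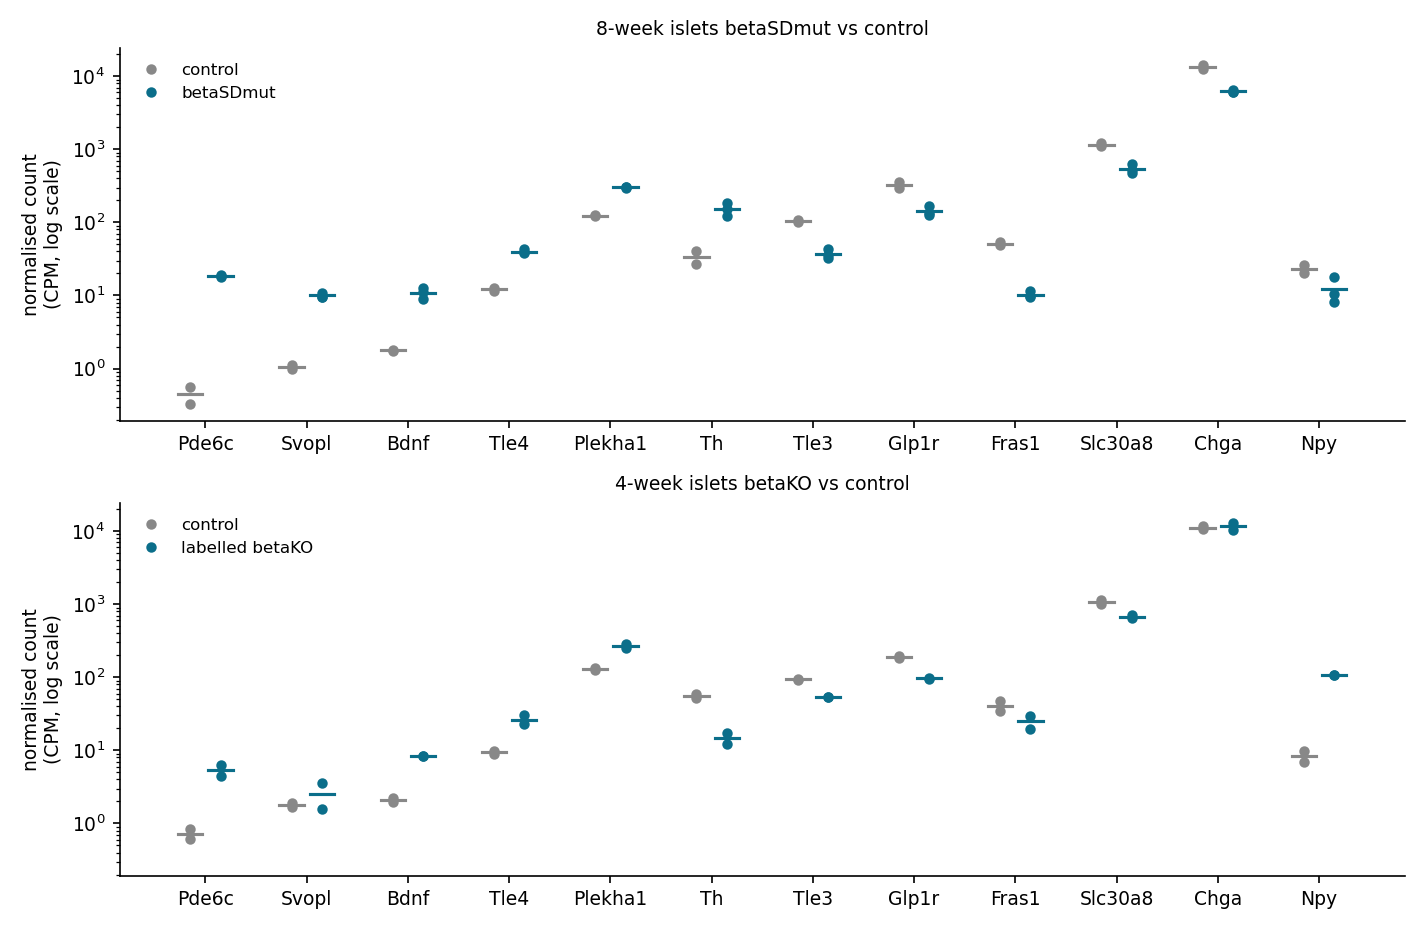
CPM per library (log axis) of 12 genes nearest to a region in 8-week islets (betaSDmut and control) and 4-week islets (betaKO and control). Points are libraries and short bars are group means. Tle3 and Glp1r lie lower and Pde6c, Bdnf, Tle4 and Plekha1 higher in both test groups, and Th lies higher at 8 weeks and lower at 4 weeks.

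In progenitors, where Nkx2.2 was added to cells that had little, the regions were bound sites of another cell type. The pMN cells had no doxycycline, so the drug and the induced transgene cannot be told apart in this comparison. Of 1288 nearest genes tested, 188 were called (14.6%), 98 higher and 90 lower with iNkx2.2, against 9.55% of all 15636 genes tested (4.75% higher and 4.80% lower). The replicate numbers paired these libraries, and with the replicate number as a block 477 were called (37.0%), against 29.6% of all genes. Genes nearest only to other final sites were called in 155 of 1525 cases (10.2%), and in 524 with the block (34.4%). The SEs and adjusted p-values of single genes below are from the fit without the block. The split by table differed from that in islets: 97 of 695 genes joined to another site (14.0%) and 85 of 530 genes outside the table (16.0%) were called. With the block these shares were 39.9% and 32.8%, so their order depended on the fit. The share by number of final sites was 9.95%, 11.7%, 11.9% and 17.0% for 0, 1, 2 and 3 or more. The count was 72, 119 and 118 without iNkx2.2 replicate 1, 2 and 3, and 78 and 114 without pMN replicate 1 and 2.

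Of 12 neural progenitor and motor neuron genes with a region, 5 fell, 1 rose and 6 did not pass the test. Over the whole list, 19 of 39 tested fell and 6 rose. Pax6, a factor of dorsal and motor neuron progenitors with 2 regions, was at 2.67, 2.24 and 2.77 CPM with iNkx2.2 and at 96.2, 156 and 95.3 in pMN (log2 fold change -5.54, SE 0.383, edgeR adjusted p 0.000102). Lhx4, a factor of motor neurons, was at 0.812, 0.183 and 0.189 CPM against 17.3, 6.85 and 22.3 (-5.14, SE 0.607). Irx5 was at 2.62, 1.33 and 2.08 CPM against 9.69, 11.3 and 10.5 (-2.40, SE 0.45). At these 3 genes every induced library was below every untreated one.

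Ptch1, the Hedgehog receptor and a target of that pathway, with a region 670 bp from its start, was at 300, 226 and 246 CPM with iNkx2.2 and at 564, 497 and 607 in pMN (log2 fold change -1.15, SE 0.134, edgeR adjusted p 0.00136). Irx3 fell by 2.35 on the log2 scale, a call that was lost with the replicate block. En1, a gene of the midbrain and of V1 interneurons, rose from 0.110, 0 and 0.212 CPM to 1.02, 0.777 and 1.33, all low levels. The summed CPM of 4 ventral progenitor markers, Pax6 among them, was 231 to 378 with iNkx2.2 and 589 to 754 in pMN.

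Of 11 islet transcription factors with a region, 2 rose (Insm1 and St18) and 1 fell (Pax6) in the same progenitors, and over the whole list 4 of 30 tested rose and 4 fell. Of 7 hormone and granule genes tested with a region, none was called, while over the whole list 3 of 14 tested rose and 1 fell. Insm1, a zinc finger factor of endocrine and neuronal differentiation with 4 regions within 100 kb, was at 228, 165 and 246 CPM with iNkx2.2 and at 38.0, 24.1 and 43.8 in pMN (log2 fold change 2.55, SE 0.23, edgeR adjusted p 0.000363). St18 rose by a log2 fold change of 1.36. Of 9 glucose sensing and exocytosis genes tested with a region, 2 rose and none fell (3 and none of 21 over the whole list): Abcc8, the sulfonylurea receptor (4.73, 2.2 and 3.3 CPM against 0.602, 0.644 and 0.763), and Rph3al, a Rab effector of granules (1.63 on the log2 scale). Insm1 and St18 were thus higher in iNkx2.2 than in pMN progenitors and were lower in betaSDmut islets.

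Besides Pax6 and Insm1, the 6 smallest p-values among nearest genes belonged to Plcxd2, Cacna1g, Map7 and Slc7a1. Plcxd2 was at 61.8, 54.0 and 62.7 CPM with iNkx2.2 and at 12.7, 13.9 and 12.2 in pMN (log2 fold change 2.16, SE 0.114, edgeR adjusted p 3.18e-05). Cacna1g, a low-voltage calcium channel gene outside the authors' islet table, was at 118 CPM in each of the 3 induced libraries and at 38.5, 28.3 and 35.1 in pMN (1.75, SE 0.114). Map7 (-1.63) and Slc7a1 (-1.31) fell. Among 5 corepressor and DNA methylation genes with a region, Tle1 fell from 77.1, 74.3 and 85.1 CPM to 45.0, 34.2 and 41.3. Dnmt3a rose by a log2 fold change of 0.66, and over the whole list 4 of 16 tested rose and 2 fell. Of 16 named genes called in progenitors, 12 were called in each of 12 other fits. The calls of Irx3, En1, Rph3al and Dnmt3a were lost without iNkx2.2 replicate 1, and some of them without other libraries.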

How the data were processed

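Per the submitters' processing notes the build was mm10 and the tools included STAR, Cufflinks, DESeq2, edgeR 3.20.9, limma 3.34.9 and bedtools 2.17.0, and their roles are not given in the sources used here. The authors deposited read counts per gene, read counts in 500 bp at GEM events, log2 CPM at the final sites and FPKM for islets. The rule that joined sites to genes is not given in the sources used here. The regions and the gene lists were chosen with earlier results of these data known.

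Sites were set against protein-coding start sites of GENCODE vM21 (GRCm38), and sequence came from the RefSeq genome of the same build, read with pysam 0.24.0 in Python 3.11.15. Motif words other than AAGTG and TNAAGTG were chosen after the windows were examined. Gene symbols matched for 2123 of 2197 nearest genes in the islet counts and 2166 in the progenitor counts, partly through older symbols. Progenitor rows with the same symbol (380 rows of 164 symbols) were summed. Whether counting used strand is not given in the sources used here, so near-identical copies (Ins1 and Ins2), overlapping and antisense genes are uncertain.

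The test was the robust quasi-likelihood test of edgeR 4.0.16 (R 4.3.3) after filterByExpr and TMM scaling, with DESeq2 1.42.0 as an alternative, and the fits and the motif counts were tested on simulated data. Each islet comparison used its own libraries, and progenitors used 8 libraries in a model of 3 groups. Same-numbered progenitor libraries deviated together from their group means (correlations 0.537, 0.514 and 0.571). Named genes were those called in both islet comparisons (at most 15), the 6 smallest p per comparison with a mean log2 CPM of at least 2, and called genes of the lists. Some genes that this rule selects are left out of the text and are not reported here. Named sites were those with extreme signal, at the threshold, with most AAGTG, and nearest to listed genes. The alternatives were other scalings, filters, tools, blocks, distances, windows and words, and leaving out each library. The input library and the embryonic pancreas were not analysed here. Intervals cover counting error only.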

Additional observations from a re-analysis of the deposited data

Results flagged for a closer look

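Th, with a region 2400 bp from its start, had a log2 fold change of 2.15 in 8-week betaSDmut islets and of -1.90 in the 4-week libraries labelled betaKO, each against controls of its own age. Every mutant library was above its controls at 8 weeks and every library labelled betaKO below its controls at 4 weeks. Npy, with a region 3843 bp from its start, had log2 fold changes of -0.94 and 3.69 in the same comparisons. Its libraries again lay below all controls in one comparison and above all controls in the other. Th was called in both comparisons, while Npy was called at 4 weeks and not at 8 weeks. The differences between the 2 comparisons were not tested, and age, allele and library preparation cannot be told apart in them.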

How the results depend on the processing

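Over the alternatives run, the number of regions lay between 3388 and 3795 and the median replicate difference between 0.153 and 0.162 log2 CPM. The 4.30% of regions within 1000 bp of a start was 3.21% for 500 bp, 10.7% for 5 kb and 7.72% with start sites of all annotated genes. The 23.8% with AAGTG was 12.1% within 25 bp, 40.9% within 100 bp, 8.32% for TNAAGTG and, added after the data were seen, 18.3% for TGAGTG. The counts of nearest genes called depended on single libraries: with 1 library left out they ran from 11 to 366 in 8-week islets, from 2 to 55 in 4-week islets and from 72 to 212 in progenitors. A limit of 25 kb gave 144, 27 and 105 genes, and counting each gene with a region within 100 kb, nearest or not, gave 376, 75 and 408. In 4-week islets DESeq2 called 137 and no count filter 72. The replicate block called 477 genes in progenitors. In islets the numbers were shared without pairing (correlations -0.0821 and -0.123 at 8 weeks, -0.0391 at 4 weeks), and the block called 141 and 50. Over all genes tested the calls were 37 to 2765 at 8 weeks, 4 to 795 at 4 weeks and 413 to 4622 in progenitors over these fits. The cause of these differences was not tested. Each islet comparison had 2 control libraries.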
